A study of Mus musculus with 8 samples.

Results

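The receptors through which corticotroph cells receive the signals that raise or lower their secretion of adrenocorticotropic hormone (ACTH) were followed in AtT20 cells, a mouse line of pituitary corticotroph tumor cells. They are 10 genes: *Crhr1* and *Avpr1b*, the receptors of corticotropin-releasing hormone (CRH) and vasopressin, *Sstr1* to *Sstr5*, the somatostatin receptors, *Drd2*, the dopamine D2 receptor, and *Lifr* and *Il6st*, the subunits of the receptor of leukemia inhibitory factor (LIF). They were chosen by name, and every probe whose RefSeq accession belongs to one of them was taken, which gave 14 probes of the 39429 on the array and 10 of the 19751 genes that could be named. RNA came from 4 control samples, incubated without the agent, and from 4 samples incubated with 10 μM HX630, a synthetic agonist of the retinoid X receptors (RXRs), for 48 hr. Both groups were kept in medium with 1% stripped serum and carry no other agent in the labels. Per the methods, the agonist was dissolved in DMSO. AtT20 is a single tumor line, and the labels do not say whether the replicates were separate cultures, so that p-values measure only the spread between these samples, which may be technical.

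CRH is the main stimulus of ACTH secretion. It binds CRHR1, which acts through Gs and cyclic AMP, and vasopressin adds to it through AVPR1B, which acts through Gq and phospholipase C. Somatostatin and dopamine restrain pituitary cells through receptors that act through Gi, and agonists of the somatostatin and D2 receptors are used in patients with corticotroph tumors. LIF and related cytokines raise transcription of *Pomc*, the gene of the ACTH precursor, through LIFR, the shared subunit gp130 (*Il6st*), and STAT3.

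RXRs bind DNA as dimers at repeats of the hexamer AGGTCA. For this reason the 250 bases before the transcription start were read for those receptors with an entry in the RefSeq promoter table (mouse assembly GRCm38.p6), which gave 9 windows for 7 receptors. *Avpr1b*, *Sstr1* and *Sstr5* had none. The windows of the receptors that rose (*Crhr1* and *Sstr3*), and those of *Sstr2* and *Lifr*, the only ones with a match, are shown 5′ to 3′ on the strand of the gene, with the matched letters in capitals.
*Crhr1*, chr11:104132531-104132780, plus strand: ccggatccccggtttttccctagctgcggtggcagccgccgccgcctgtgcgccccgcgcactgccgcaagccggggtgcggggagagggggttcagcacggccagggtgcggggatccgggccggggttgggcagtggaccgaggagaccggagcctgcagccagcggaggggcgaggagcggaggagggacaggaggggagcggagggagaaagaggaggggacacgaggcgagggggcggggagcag
*Sstr3*, chr15:78544346-78544595, minus strand: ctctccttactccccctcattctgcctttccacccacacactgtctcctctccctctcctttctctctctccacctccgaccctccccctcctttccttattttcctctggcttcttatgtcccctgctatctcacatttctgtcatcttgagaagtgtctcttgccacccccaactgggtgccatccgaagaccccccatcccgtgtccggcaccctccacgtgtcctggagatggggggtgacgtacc
*Sstr3*, chr15:78541407-78541656, minus strand: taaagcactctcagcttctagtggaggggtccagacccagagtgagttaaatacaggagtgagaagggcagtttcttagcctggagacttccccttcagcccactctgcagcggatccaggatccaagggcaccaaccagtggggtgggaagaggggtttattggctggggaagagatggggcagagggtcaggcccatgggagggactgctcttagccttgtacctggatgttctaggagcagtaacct
*Sstr2*, chr11:113619077-113619326, plus strand: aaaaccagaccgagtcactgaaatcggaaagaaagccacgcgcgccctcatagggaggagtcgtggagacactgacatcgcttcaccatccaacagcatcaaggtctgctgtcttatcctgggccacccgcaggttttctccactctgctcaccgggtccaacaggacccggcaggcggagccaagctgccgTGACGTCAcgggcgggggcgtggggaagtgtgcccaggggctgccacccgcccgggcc
*Lifr*, chr15:7129322-7129571, plus strand: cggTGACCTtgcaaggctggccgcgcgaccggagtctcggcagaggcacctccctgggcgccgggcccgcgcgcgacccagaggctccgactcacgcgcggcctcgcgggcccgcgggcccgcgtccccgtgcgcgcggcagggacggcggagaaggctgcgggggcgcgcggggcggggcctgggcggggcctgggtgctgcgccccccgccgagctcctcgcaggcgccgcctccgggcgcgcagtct
The motifs searched on both strands were the hexamer itself, its direct repeats with 1, 4 and 5 bases between (DR1, DR4 and DR5, which contain it), the NBRE (AAAGGTCA, which contains it too), the cyclic AMP response element (TGACGTCA) and the STAT site (TTCNNNGAA). The window of *Sstr2* held the cyclic AMP response element from base -58 to base -51, counted from the transcription start, as did 1.55% of all 32851 windows. The first window of *Lifr* held the hexamer, written TGACCT on this strand, from base -247 to base -242, as did 14% of all windows. The other letters were not in any of the 9 windows. Over all windows they were found in 0.0335%, 0.0152% and 0.00913% for DR1, DR4 and DR5, in 1.34% for the NBRE and in 7.02% for the STAT site. A match of letters describes the window and is not a measured binding site.

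Each RNA was hybridized to 1 array of 1 color, and a signal is given as the log2 of the processed intensity minus the 75th percentile of its array, so that 0 stands for that percentile. As an intensity, this percentile ranged from 1335 to 1863 in the control and from 1803 to 1899 with HX630, and 69.7% to 73.5% of the probes were well above background. No probe was saturated. Control replicate 1 correlated least with its group, and without it *Crhr1* and *Sstr3*, the receptors called below, were still called. The control arrays shared 1 slide and the HX630 arrays another, each scanned on its own, so a difference between slides or scans and one between treatments cannot be told apart in any value given here. Of the 7 corticotroph markers, 6 were well above background on all 8 arrays, *Pomc* and *Tbx19* among them, and *Avpr1b* on none. The summed level of these markers, as multiples of the 75th percentile, was 301 to 376 on the control arrays and 218 to 228 on the HX630 arrays. *Pomc* and *Pcsk1*, the latter called down, carry this sum, and without them it was 13.2 to 13.8 in the control and 13.1 to 14 with HX630. This remainder held log2 fold changes in both directions. Called up among the 7 were *Neurod1* (0.72) and *Crhr1* itself (1.11), whereas *Tbx19* (-0.37) and *Pitx1* (-0.32) were lower. These 2 falls and that of *Pomc* (-0.45) had adjusted p-values below 0.01 (limma) but were not called. Of the 19 markers of other pituitary, fibroblast, leukocyte and endothelial cells, 18 had a named probe, 13 were tested, 2 rose (*Pcsk2* and *Dcn*) and 2 fell (*Gh* and *Pecam1*). Under 25 alternatives of the processing, the call of *Dcn* was lost in 11, that of *Pecam1* in 7 and that of *Gh* in 2. Leaving out any single array other than control replicate 1 ended the call of *Dcn* (0.85 to 1.11), and leaving out control replicate 1, HX630 replicate 2 or HX630 replicate 3 ended that of *Pecam1* (-0.55, -0.56 and -0.57). Their summed level was 4.79 to 5.59 in the control and 5.69 to 6.17 with HX630, but without *Pcsk2* alone it was 3.27 to 4.14 and 2.71 to 3.31. *Prl*, *Tshb* and *Cga* were not well above background on any array. The part of either change in the receptor values was not tested. In RNA from whole cultures, fewer cells that express a gene and less RNA of it per cell cannot be told apart.

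Of the 10 receptors, 8 were expressed at a level that could be tested, which here means a signal well above background on 4 or more of the 8 arrays. With HX630, *Sstr3* rose 6.47-fold and *Crhr1* 2.16-fold, and 0 receptor genes were called down, by limma or by the methods' t-test. A call needed a fold change of more than 1.5 together with an adjusted p under 0.01 in a limma fit over all 28552 tested probes, and a gene was represented by its brightest tested probe. Over all 15319 tested genes, 19.5% were called, 8.38% up and 11.2% down, so that 2 of 8 receptors is not far from the share of all genes. *Sstr5*, *Il6st* and *Sstr4* had adjusted p-values below 0.01 and were lower by less than the fold change required (these are also the 3 receptors lower at an unadjusted p under 0.05), whereas *Sstr2*, *Lifr* and *Drd2* did not pass the test. An adjusted p below 0.01, whatever the fold change, was thus reached by 2 receptors in the direction of higher and by 3 in that of lower, against 24.0% and 27.2% of all tested genes (51.2% together). For the same 5 of 8 receptors the arrays of both groups did not overlap, against 61.5% of all tested genes. The median log2 fold change of the 8 receptors was -0.077, and that of all tested genes was -0.034.

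**Figure D1:**
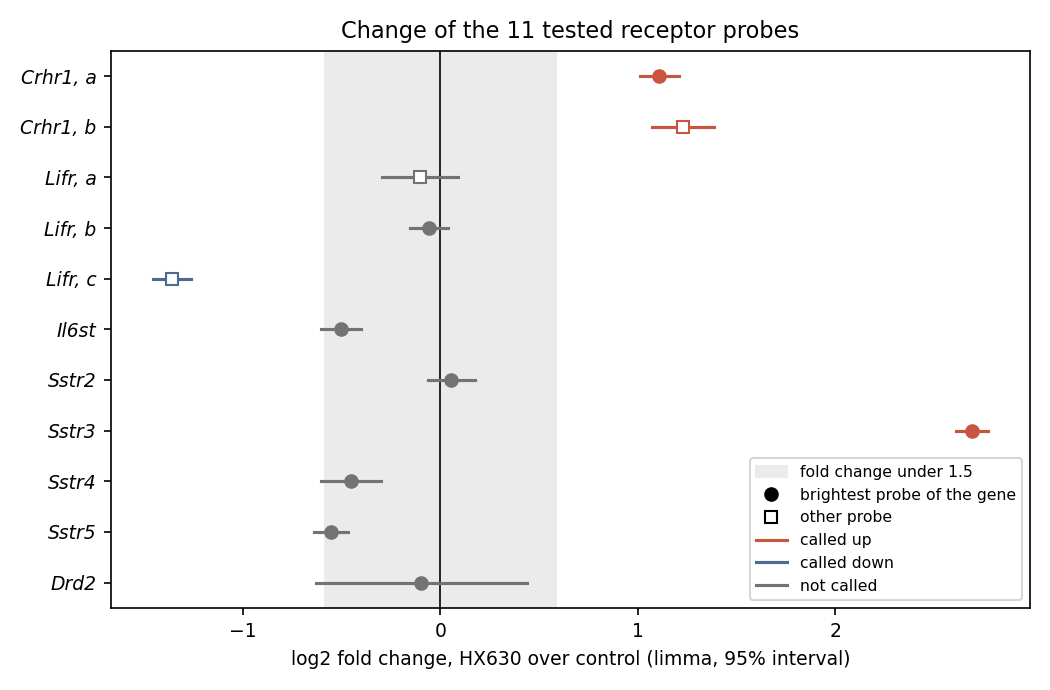
Log2 fold change, HX630 over control, of the 11 tested probes of 8 receptors, with 95% intervals from limma (horizontal axis, log2 units) and 1 line per probe. Filled circles are the brightest probe of a gene, open squares are its other probes, and the grey band is a fold change under 1.5. *Sstr3* lies farthest to the right at 2.69, both *Crhr1* probes lie at 1.11 and 1.23, and the third *Lifr* probe is the only one called down, at -1.36.

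Among the receptors that stimulate secretion, *Crhr1* rose. Its brightest probe (A_51_P229163) read -1.05, -0.98, -1.01 and -1.02 on the 4 control arrays and 0.062, 0.13, 0.017 and 0.16 on the 4 HX630 arrays. Every HX630 array was thus higher than every control array, with 1.00 log2 units between the nearest of them. The log2 fold change was 1.11 ± 0.042 (SE, 95% interval 1.01 to 1.21, adjusted p = 5.12e-07, limma), rank 375 from the top among the 15319 genes. A dimmer probe of the same transcript (A_55_P1997609) had a mean of -4.74 ± 0.082 (SD, n = 4) in the control and of -3.51 ± 0.11 (SD, n = 4) with HX630. Its log2 fold change was 1.23 ± 0.067 (SE, adjusted p = 2.80e-06, limma). The two-sided exact permutation test gave p = 0.0286 for each of these probes, the smallest that 4 against 4 arrays allow. Over 25 alternatives of the processing the log2 fold change of *Crhr1* stayed between 1.09 and 1.33. That of the dimmer probe ranged more widely, from 0.61 with normexp at an offset of 50 to 1.45 with spike-in scaling, and it was called under each that was run.

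The vasopressin receptor of corticotrophs, *Avpr1b*, was well above background on 0 of the 8 arrays. Its probe (A_66_P121039) had processed intensities of 3.6 to 6.9 on the control arrays and 5.2 to 7.8 on the HX630 arrays, and no fold change is given.

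The somatostatin receptors moved unequally. *Sstr3* (probe A_55_P2106335) read -0.97, -1.03, -0.997 and -1.02 on the control arrays and 1.65, 1.74, 1.71 and 1.66 on the HX630 arrays. In processed intensity this was 667 to 933 against 5659.7 to 6140.3, with no overlap. The log2 fold change of 2.69 ± 0.035 (SE, 95% interval 2.61 to 2.77, adjusted p = 4.87e-08, limma) ranked 22 from the top among all tested genes, and 0.627% of them had a larger change in either direction. Its range over the alternatives was 2.59 to 2.91.

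*Sstr5*, the subtype at which the drug pasireotide acts most, read 3.26, 3.31, 3.21 and 3.23 on the control arrays and 2.72, 2.69, 2.65 and 2.72 on the HX630 arrays (probe A_66_P120347). All HX630 arrays were lower, at 68.1% of the control signal, with a log2 fold change of -0.55 ± 0.036 (SE, 95% interval -0.64 to -0.47, adjusted p = 7.17e-06, limma). This is a smaller change than the 1.5-fold required. *Sstr4* (probe A_51_P129546) read -2.05, -2.15, -2.14 and -2.03 in the control and -2.69, -2.60, -2.43 and -2.48 with HX630. Its HX630 arrays were also all lower, at 73.1% of the control signal, and again short of the required fold change (log2 fold change -0.45 ± 0.065, SE, adjusted p = 5.56e-04, limma). When the arrays were scaled to the spike-in probes, which raised the median of all tested probes from -0.056 to 0.17, *Sstr5* was at -0.33 and *Sstr4* at -0.23. The adjusted p of *Sstr4* was then 0.033 (limma), no longer below 0.01, and ranged from 2.01e-04 to 0.033 over the alternatives.

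*Sstr2*, the subtype that the drug octreotide binds best, was measured on all arrays and did not pass the test. Its probe (A_55_P2065424) read 0.18, 0.24, 0.24 and 0.20 in the control and 0.40, 0.24, 0.18 and 0.24 with HX630. HX630 replicates 1, 2 and 4 lay above all control arrays and replicate 3 did not. Replicates 2 and 4 did so by little (0.2442 and 0.2441, against 0.2411 for the highest control array). The log2 fold change was 0.055, with a 95% interval from -0.065 to 0.18 (adjusted p = 0.388, limma), so that a change of 1.5-fold lies outside the interval. With spike-in scaling *Sstr2* was at 0.28 with an adjusted p of 0.00635 (limma), still under the 1.5-fold required, and over the alternatives this p ranged from 0.00635 to 0.83. *Sstr1* had 2 probes and was not tested. One of them was well above background on 1 control and 1 HX630 array and the other on none.

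**Figure D2:**
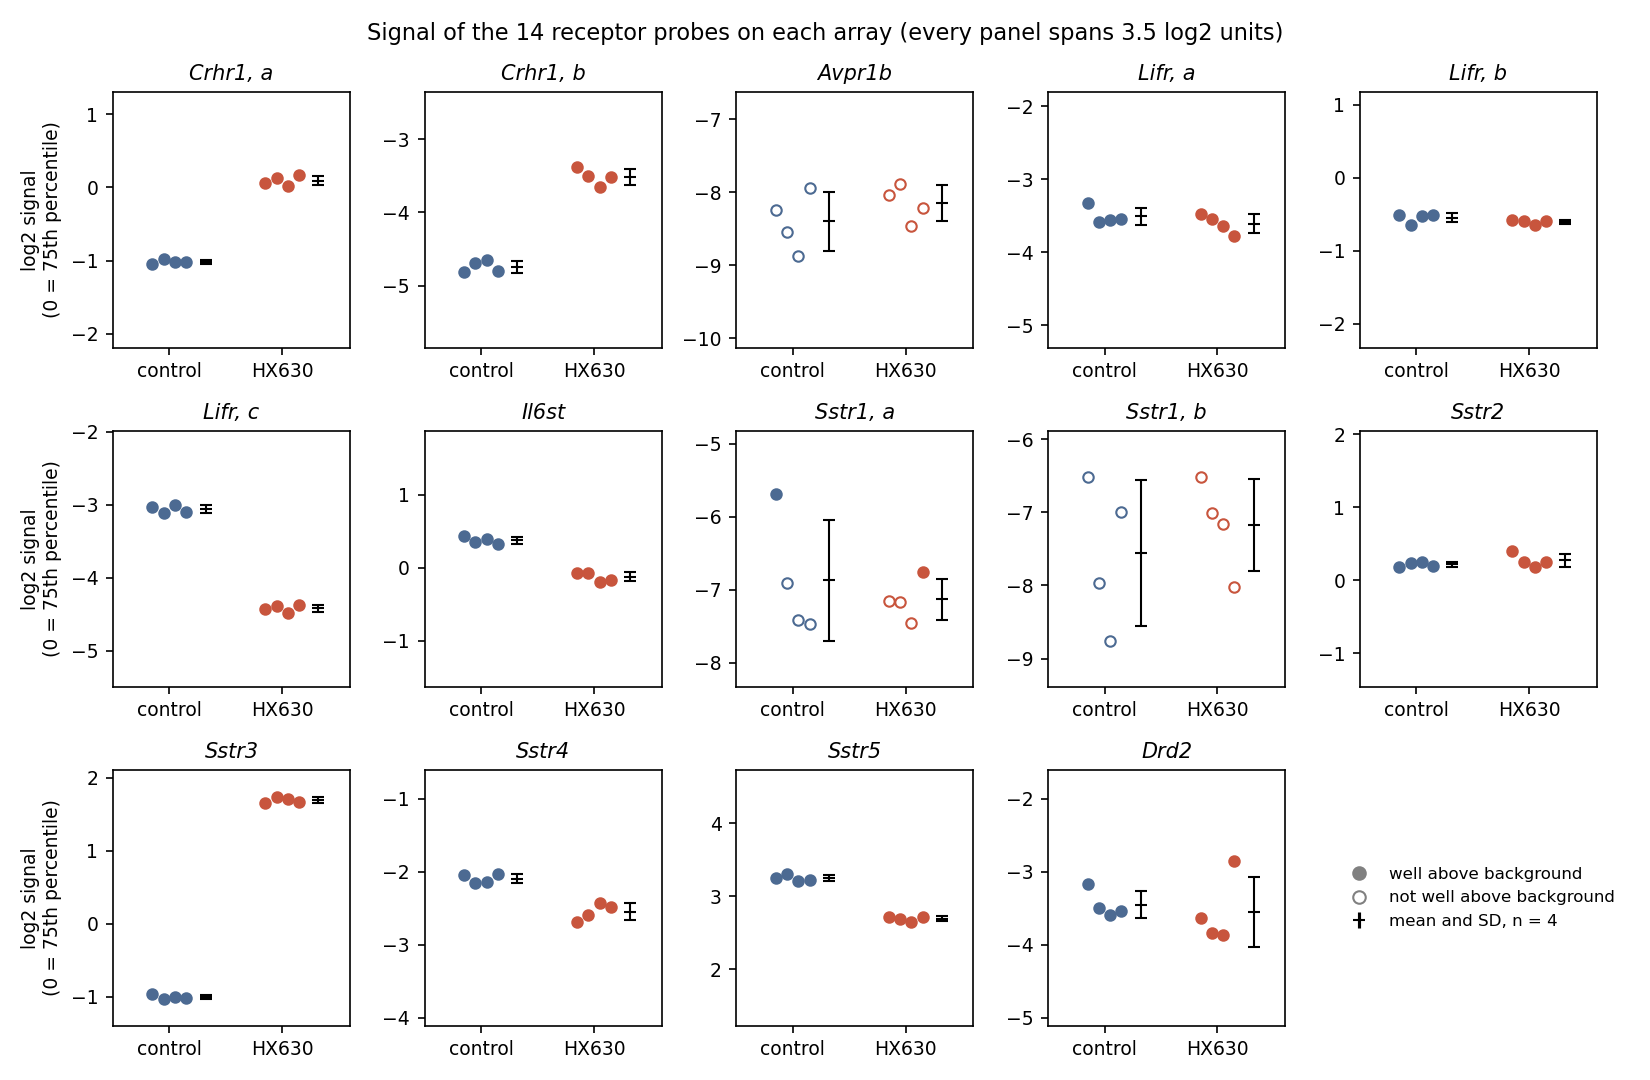
Log2 signal of each of the 14 receptor probes on each array (vertical axis, 0 is the 75th percentile of the array), with control arrays in blue and HX630 arrays in red, and bars for the mean and SD of 4 arrays. Every panel spans the same number of log2 units at its own level, and open circles were not well above background. The groups stand apart for *Sstr3*, both *Crhr1* probes, the third *Lifr* probe, *Il6st*, *Sstr4* and *Sstr5*, and *Avpr1b* has open circles only.

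*Drd2* (probe A_52_P529650) was well above background on all arrays, and its HX630 arrays did not lie together. They read -3.64, -3.83, -3.87 and -2.85, against -3.17, -3.50, -3.59 and -3.54 in the control. HX630 replicate 4 was higher than every other array. The log2 fold change was -0.096 with a wide 95% interval, from -0.63 to 0.44 (adjusted p = 0.740, limma), which includes a fall or a rise of less than 1.5-fold and a fall slightly beyond it. Without HX630 replicate 4 it was -0.33, which was not called either, and without HX630 replicate 3 it was 0.011. No direction can be given for this receptor.

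*Il6st*, which encodes gp130, the signaling subunit shared by the receptors of LIF, IL-6, IL-11 and related cytokines, was lower with HX630. Its probe (A_51_P473888) read 0.43, 0.36, 0.40 and 0.32 on the control arrays and -0.076, -0.071, -0.19 and -0.16 on the HX630 arrays. The groups did not overlap, and the HX630 signal was 70.6% of the control signal. The log2 fold change of -0.50 ± 0.044 (SE, 95% interval -0.60 to -0.40, adjusted p = 3.49e-05, limma) was short of the 1.5-fold required, and it was -0.28 with scaling to the spike-in probes.

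For *Lifr*, the other subunit of the LIF receptor, the answer depended on the probe. The brightest probe (A_55_P2159259) read -0.51, -0.64, -0.53 and -0.51 in the control and -0.58, -0.59, -0.65 and -0.60 with HX630. These ranges overlapped, and the log2 fold change was -0.058 with a 95% interval from -0.15 to 0.039 (adjusted p = 0.266, limma). Another probe named by the same transcript (A_51_P113182) also did not pass the test, at -0.10 (95% interval -0.30 to 0.088, adjusted p = 0.314, limma).

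The third *Lifr* probe (A_55_P2159264) is named by another RefSeq transcript of the gene, NM_001113386, while the first and the second are named by NM_013584. It read -3.03, -3.11, -3.0 and -3.10 on the control arrays and -4.43, -4.39, -4.48 and -4.38 on the HX630 arrays, with no overlap. It fell to 38.9% of the control signal (log2 fold change -1.36 ± 0.041, SE, adjusted p = 2.34e-07, limma). Of all tested probes, 11.2% were called down, 7.46% up and 18.6% in either direction, and of the 11 receptor probes 1 was called down and 3 up. On the same array, the difference of this probe from the brightest one lay between -2.59 and -2.47 in the control and between -3.85 and -3.78 with HX630. For the other dim probe the same difference was -2.96 ± 0.10 (SD, n = 4) in the control and -3.01 ± 0.13 (SD, n = 4) with HX630, which overlap. The mean of the 3 probes had a log2 fold change of -0.51, which is not called either, so that the value for the gene moves with the choice of probe. Neither the places of these probes in the transcripts nor their sequences are used here.

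**Figure D3:**
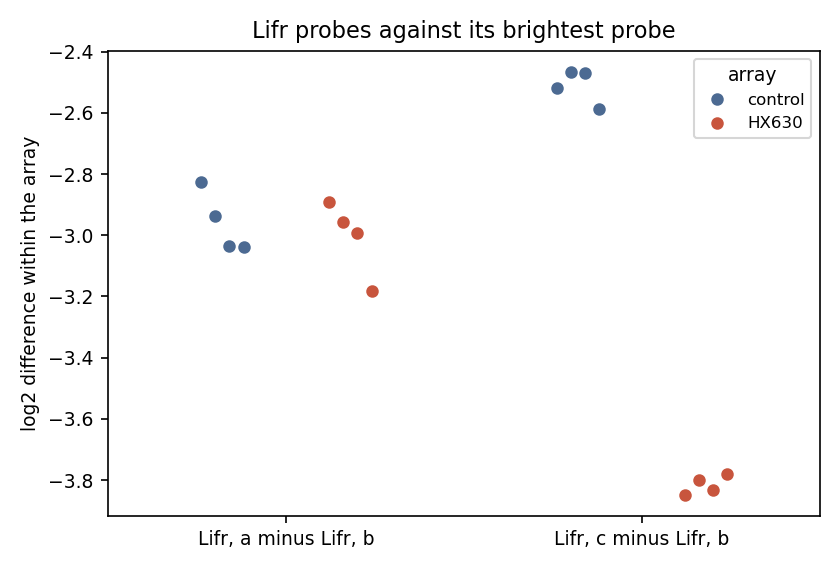
Difference within each array between a dim *Lifr* probe and the brightest *Lifr* probe, b (vertical axis, log2 units), for the 4 control arrays (blue) and the 4 HX630 arrays (red). The values of probe a overlap between the groups, whereas those of probe c, named by NM_001113386, lie between -2.59 and -2.47 in the control and between -3.85 and -3.78 with HX630.

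Whether receptors of one family changed unequally was tested on differences within arrays, which a scaling by 1 factor per array leaves as they are. Quantile normalization does change them, with the shift of *Sstr2* against *Sstr5*, for example, at 0.54. There were 7 pairs, all pairs of the 4 tested somatostatin receptors together with *Lifr* and *Il6st*, with two-sided exact permutation tests and Benjamini-Hochberg adjustment over the pairs. *Sstr3* shifted against *Sstr5* by 3.25 ± 0.044 (SE), against *Sstr4* by 3.15 ± 0.064, and *Sstr2* against *Sstr3* by -2.64 ± 0.068. Against *Sstr5* and *Sstr4*, *Sstr2* shifted by 0.61 ± 0.045 and 0.51 ± 0.11. In these pairs no HX630 array reached the control arrays (exact permutation test, adjusted p = 0.0333 for each). Before adjustment each p of this test was 0.0286, the smallest that 4 against 4 arrays allow, so the p-values do not rank the pairs. How often pairs of other genes shift in this way was not tested. *Sstr4* against *Sstr5* shifted by 0.10 ± 0.083 (SE), and this pair overlapped (exact permutation test, adjusted p = 0.257). The brightest *Lifr* probe shifted against *Il6st* by 0.44 ± 0.041 (SE, exact permutation test, adjusted p = 0.0333), but the third *Lifr* probe changed the other way relative to *Il6st*, with fitted log2 fold changes of -1.36 and -0.50, a difference that was not tested. A shift within an array shows unequal change only, and not which of the genes changed.

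**Figure D4:**
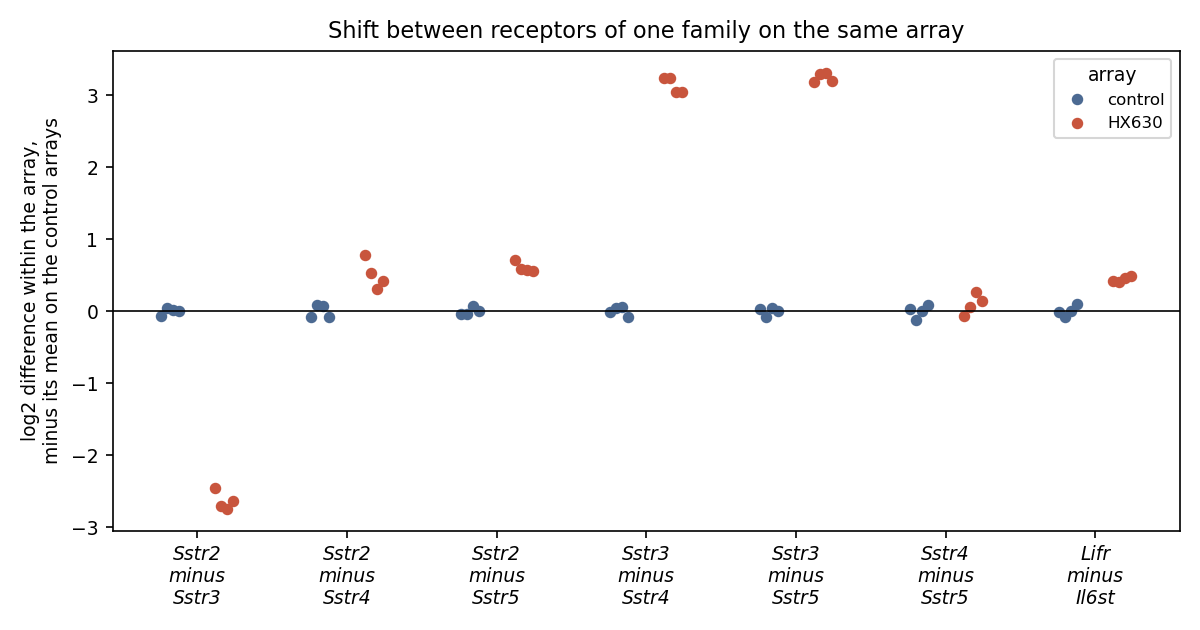
Difference in log2 signal between 2 receptors on the same array, minus its mean on the control arrays (vertical axis, log2 units), for 7 pairs, with control arrays in blue and HX630 arrays in red. The pairs that hold *Sstr3* lie farthest from 0, at shifts of -2.64, 3.15 and 3.25, and the arrays of both groups overlap for *Sstr4* minus *Sstr5*, at 0.10.

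Around the receptors, 142 genes in 7 lists were counted, of which 111 were tested, 15 were called up and 15 down. This is 13.5% in each direction, against 8.38% and 11.2% of all tested genes, and the median log2 fold change was 0.044. Over the alternatives the median changed sign in each list but that of gp130 signaling, where it lay between 0.063 and 0.32, so the list medians give no direction. Among the 16 ligands, *Crh* and *Il6* were well above background on 0 of 8 arrays, *Ucn* and *Lif* on 1 array each and *Avp* on 3 control and 2 HX630 arrays. *Cort*, which encodes cortistatin, a peptide that binds all somatostatin receptors, rose by 1.09 ± 0.064 (SE, adjusted p = 4.16e-06, limma). *Sst*, the gene of somatostatin, fell by 0.60 on the log2 scale (adjusted p = 7.71e-05, limma), close to the fold change required, and was not called under 7 of 25 alternatives, among them without control replicate 1 (-0.58) and without HX630 replicate 4 (-0.57). Of the 12 ligands tested, these were the only ones called.

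Of 10 tested paralogs and co-receptors, 3 were called, against 19.5% of all tested genes. All 3 were cytokine receptor chains that pair with gp130. *Il6ra*, the IL-6 receptor alpha chain, fell by 0.97 on the log2 scale (SE 0.065, adjusted p = 8.12e-06, limma). *Cntfr*, the alpha chain of the ciliary neurotrophic factor receptor, rose by 0.82 (adjusted p = 2.02e-05, limma), and *Il11ra1*, that of the IL-11 receptor, rose by 0.62 (adjusted p = 1.91e-05, limma). In the signaling chain below gp130, 26 genes were tested, with 3 up and 2 down, against 8.38% and 11.2% of all tested genes. *Socs2*, an inhibitor of cytokine signaling, rose by 1.02, and its other probes gave 0.91 and 0.94. *Stat2* rose by 0.66. *Shc1*, an adaptor protein, fell by 0.75 and *Socs3*, the feedback inhibitor that LIF induces in corticotrophs, by 0.66 on the log2 scale. *Sos1* was called up at 0.61 on a probe that only 2 control arrays measured above background, and with normexp background correction it was at -0.25. Its call was also lost when control replicate 1 (0.56), control replicate 2 (0.58) or HX630 replicate 2 (0.58) was left out. Scaling to the spike-in probes ended the calls of *Shc1* and *Socs3*, at -0.53 and -0.43, and scaling to the median that of *Socs3*, at -0.57. *Socs3*, *Sos1* and, below, *Agtr1a* were named after their values were seen.

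Of the G protein subunits that couple the receptors, 12 were tested and 2 were called by limma, against 19.5% of all tested genes. Both fell, *Gnas* (Gs alpha, which couples CRHR1 to adenylyl cyclase) by 0.73 and *Gnaq* by 0.69 on the log2 scale. The other *Gnas* probes gave -0.26 and -0.29, and the mean of its probes, at -0.42, was not called. Each of these genes lost its call under 3 of the 25 alternatives. Of 9 tested adenylyl cyclases and beta-type phospholipases C, *Adcy5*, a cyclase that Gi inhibits, was the only one called, with a log2 fold change of 1.12 ± 0.042 (SE, adjusted p = 4.94e-07, limma) and other probes at 1.65 and 1.02.

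The list with the most calls was that of receptor desensitization, which holds the receptor kinases, the arrestins, the regulators of G protein signaling (RGS) and 2 anchoring proteins. Of its 22 tested genes, 6 were called up and 7 down, against 8.38% and 11.2% of all tested genes. The median of the list was 0.21, which turned to -0.023 with normexp at an offset of 50. It was -0.047 with no filter on dim probes and 0.43 with spike-in scaling. *Rgs4*, which speeds the inactivation of Gi and Gq, fell by 3.19 on the log2 scale (SE 0.19, adjusted p = 4.88e-06, limma), and its other probe fell by 3.02. *Rgs11* fell by 2.09 (SE 0.051, adjusted p = 1.22e-07, limma) and *Grk3*, a receptor kinase that has the CRH receptor among its substrates, by 1.69 (SE 0.079, adjusted p = 1.27e-06, limma). None of these 3 calls changed under the 25 alternatives.

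Among 20 other tested receptors of peptides, hormones and cytokines, 2 were called up and 2 down, against 8.38% and 11.2% of all tested genes. *Vipr1*, a receptor of vasoactive intestinal peptide, fell by 2.26 on the log2 scale (SE 0.11, adjusted p = 1.33e-06, limma), with its other probe at -0.96. *Il1r1*, the IL-1 receptor, fell by 2.16 (SE 0.064, adjusted p = 2.18e-07, limma). *Glp1r* was called up at 0.60, but its other probe gave -0.58 and the mean of both 0.0062, which is not called. It lost its call under 11 of the 25 alternatives, among them the removal of any single array other than control replicate 1, where it lay between 0.52 and 0.63. *Agtr1a* was called up at 1.05, with 2 of the 4 control arrays above background, and with normexp background correction it was at -0.069.

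**Figure D5:**
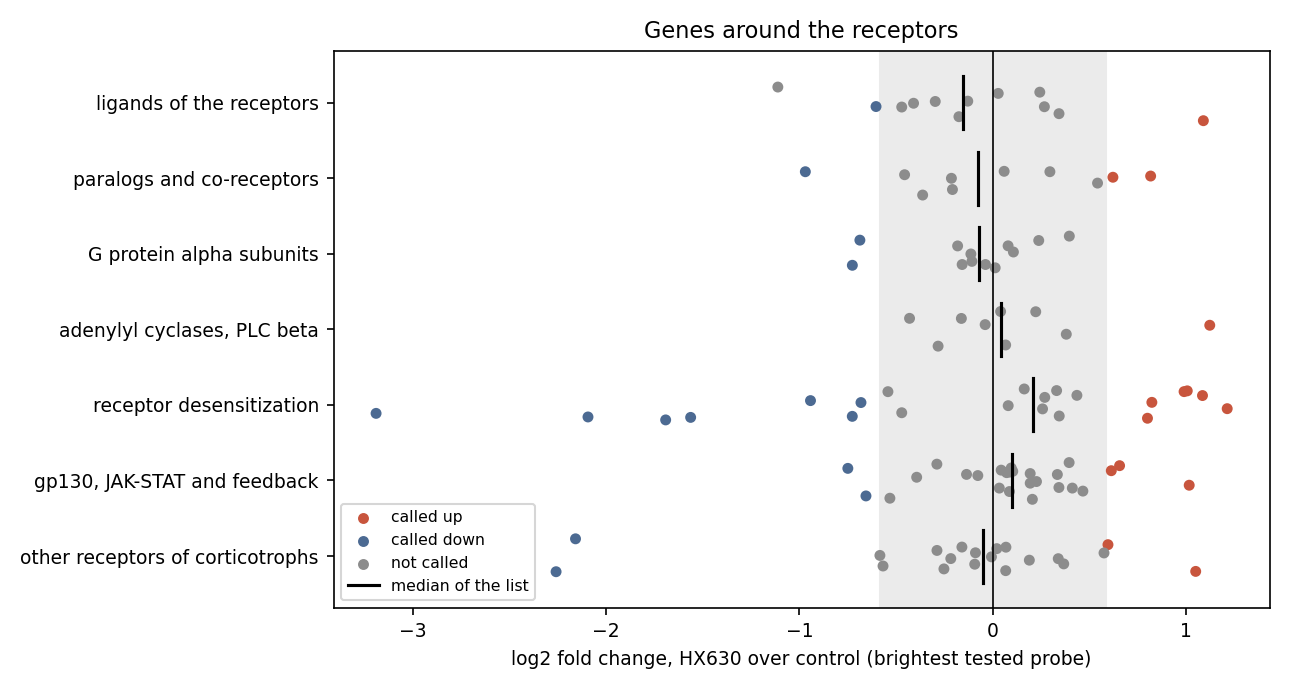
Log2 fold change, HX630 over control, of each tested gene in the 7 lists (horizontal axis, log2 units, brightest tested probe, 1 point per gene), with the median of each list as a black bar and fold changes under 1.5 in grey. The medians lie between -0.15 for the ligands and 0.21 for receptor desensitization, and both change sign under other settings. The lowest value is that of *Rgs4* at -3.19.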

How the data were processed

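Gene expression was measured in 4 control and 4 HX630 samples, 1 array each. The authors deposited the Feature Extraction 10.7.3.1 output of every array, in which the processed intensity is background-subtracted and spatially detrended but not scaled between arrays, and a table of log2 values that matched the scaling used here.

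The analysis used limma 3.58.1 under R 4.3.3. From the log2 of the processed intensity the 75th percentile of the array was subtracted. The 1377 control spots among 44397 and the outlier spots were dropped, spots of a probe were averaged, and the percentile was taken over the resulting probes. Groups were compared with lmFit and eBayes without a replicate block, with Benjamini-Hochberg adjustment over all tested probes. Probes were named by RefSeq accession without version (26055 of 39429 matched). In simulated data for HX630 against control over 28542 probes, 72% of 200 probes changed by 1 log2 unit were called, 0 in the wrong direction, with 1 false call. The other simulated probes had no difference between groups and no slide effect. In the measured data 51.2% of tested genes had an adjusted p below 0.01 (limma), so the simulated rates need not hold there. The number of arrays limits the precision.

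The members and lists were chosen with earlier results of these data known. From each list, up to 3 called genes with the largest changes among those above background on all 8 arrays were named. The alternatives were other scalings, the deposited log2 values, normexp background correction on the median spot intensity (offset 50, and 16 added after the data were seen), other detection filters, no removal of outlier spots, another variance model, the methods' t-test, another threshold, the mean of the probes of a gene, a replicate block and leaving out each array.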

Additional observations from a re-analysis of the deposited data

Results flagged for a closer look

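For groups of 4 arrays, the array farthest from the others was compared with the range of its group. Of 34 groups of values checked, 3 had an array apart, where chance gives about 1.7. For the *Lifr* probe A_51_P113182, control replicate 1 lay at -3.33 against a mean of -3.56 over the other control arrays, with a gap of 0.87 of the range. For the brightest *Lifr* probe, A_55_P2159259, control replicate 2 lay at -0.64 against a mean of -0.52, with a gap of 0.85 of the range. The log2 fold change of this probe was -0.090 without control replicate 2 and was not called with or without it. Among the arrays as a whole, control replicate 1 had a mean correlation with its own group of 0.996, against 0.997 for the other controls, with a gap of 0.896 of the range. Without control replicate 1, the receptor genes called were the same in number, 2 up and 0 down.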

How the results depend on the processing

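Over 25 alternatives, 2 receptor genes were called up under each, and under the 16 that apply to receptor pairs every shift kept its direction and its side of the threshold. *Lifr* turned to 0.030 with the median, 0.16 with spike-in scaling, and 0.0015 and 0.0039 with normexp offsets of 50 and 16, and *Drd2* to 0.12 with spike-in scaling and 0.011 without HX630 replicate 3 (leaving out single arrays gave -0.33 to 0.011). The *Lifr* probe A_51_P113182 turned to 0.12 with spike-in scaling. *Sos1* turned to -0.25 and -0.24 and *Agtr1a* to -0.069 with normexp. Spike-in scaling moved the median of all tested probes by 0.22. It called 4180 probes up and 1888 down, against 2131 and 3184, and 24 list genes up and 8 down, against 15 and 15. Of all calls, 40.1% were higher with HX630, against 51.6% with the median, 68.9% with spike-in scaling and 31.7% and 31.8% with normexp offsets of 50 and 16. Normexp called 1240 probes up, or 1355 with the added offset of 16. At an adjusted p below 0.05 with no fold threshold, 7312 probes were called up and 9408 down, with 38 list genes up and 36 down, and 3 receptors down, *Il6st* (-0.50), *Sstr4* (-0.45) and *Sstr5* (-0.55). The methods' t-test at its own thresholds called 2110 probes up and 3127 down, or 1981 and 2883 after Benjamini-Hochberg adjustment. The causes of these changes were not tested.

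Same-numbered arrays deviated together with correlations of 0.52, -0.0093, 0.24 and 0.38. The highest correlation of each control array with an HX630 array of another number was 0.17, 0.078, 0.26 and 0.23. Control replicates 1 and 4 thus correlated most with their own number, and 2 and 3 did not. The replicate number was also the position on the slide. The labels name no pairs, and the main fit did not take the numbers as pairs. With a replicate block, 2210 probes were called up and 3345 down and no receptor call changed. No paired test of receptor pairs was run, since 4 pairs cannot go below p = 0.125 in an exact test.

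The signal over background limits *Avpr1b* and *Sstr1*, which have no fold change here.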
